A study of Mus musculus with 16 samples.

Results

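The Zfp genes encode zinc finger proteins, and those described here carry a symbol made of Zfp and a number and had 20 or more counts in each of the 16 mice. They were thus chosen by their measured counts. The deposited table held 374 such symbols among 54532 genes, and 279 of them reached the minimum. Detection of these genes in every mouse is therefore a description and not a finding. Of the other 95 symbols, 7 had no count in any mouse, and 24 would have been members without a single library, hTau.P301S replicate 1, in which alone they fell under 20 counts. Zfp454, Zfp595, Zfp605 and Zfp760 lay just inside the minimum, each with a lowest count of 22. Just outside it lay Zfp618 and Zfp960, each with a lowest count of 18, and Zfp599 and Zfp871, each with 16. The 16 counts of Zfp871 came from hTau.P301S replicate 1, and its other 15 mice had at least 345.

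A zinc finger of the C2H2 type is a short fold held by a zinc ion, and arrays of such fingers joined by a conserved linker read DNA sequence. Many Zfp proteins also carry a KRAB domain, which recruits the corepressor Trim28 (KAP1) and leads to silent chromatin, and a large share of them bind retroelements. The symbol is a name and not a single family: Zfp36 (tristetraprolin), for example, has CCCH fingers and binds AU-rich elements of mRNA, and other members act in splicing, on the spindle or at promoters. In the brain, members such as Zfp423, Zfp521 and Zfp462 are known from neural development.

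Hippocampal RNA came from 4 mice in each of 4 groups. WT mice and mice of the hTau.P301S strain, in which the Thy1 promoter drives human Tau with the P301S mutation in neurons, were given either vehicle water or water with 6 mM NR (nicotinamide riboside, a precursor of NAD+). The labels give treatment for 3 months, from 12 to 15 months of age, and the study's text gives other ages and, in places, another duration. Reads were aligned to the mouse genome, and whether reads of the human transgene were counted under mouse Mapt was not tested.

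Libraries held from 16490261 to 21915362 counts. The library of hTau.P301S replicate 1 stood apart, with 14.4% of counts from mitochondrial genes against 4.48% to 7.07% in the other 15 mice, 19467 genes detected against at least 22199, and the lowest summed level of 5 neuronal markers (2691 CPM, against 4327 to 9701 CPM in the others). CPM is the usual counts-per-megaread scale, with TMM-normalised library totals. The markers of other tissue also varied. The summed level of 4 choroid plexus markers ranged from 17.7 to 9562 CPM, that of 5 striatal markers from 56.5 to 1072 CPM with the highest value in WT replicate 2, and that of 5 nuclear noncoding RNAs (Malat1 and Meg3 among them) from 483 to 4700 CPM with the highest values in WT replicates 3 and 4. The summed level of 4 endothelial markers was 64.5 to 105 CPM in hTau.P301S mice, below the 130 to 136 CPM of hTau.P301S + NR mice without overlap, and 101 to 217 CPM in WT mice. Its part in the comparisons with hTau.P301S mice was not tested. Of the choroid plexus markers, 1 was at 0 in hTau.P301S replicate 1 and 1 in hTau.P301S + NR replicate 1, and none of the other lists had a marker at 0. Markers of the hippocampus were present in every mouse, at a summed level of 375 to 972 CPM. All comparisons are given with all mice, and for those that use hTau.P301S replicate 1 most results are also given without it. The counts of members without overlap and the values by chromosome position are given with all mice only.

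The repeated unit of these proteins is visible in the coding sequence. The linker between fingers is encoded by a run of 15 bases, which was searched in frame, with any base at the last position of each codon, on the coding strand of the longest coding transcript of each gene (GENCODE M21, GRCm38). Of 277 members with a complete coding sequence, 206 (74.4%) held at least 1 such run, against 215 of 14572 other genes kept by the filter on low counts (1.48%). The median was 3 runs per member and 117 members held 5 or more. The following stretches of coding sequence are shown because their genes are described below. Each is 84 bases long and ends with a linker run, in capitals, preceded by the coding bases where a finger lies, and the Zfp950 stretch does not encode a complete C2H2 finger. They are exonic and lie at chr19:61120338-61120421 on the minus strand (Zfp950, exon 4 of 4), chr9:19646891-19646974 on the plus strand (Zfp317, exon 9 of 9), chr7:30133898-30133981 on the plus strand (Zfp382, exon 5 of 5) and chr15:75974937-75975020 on the plus strand (Zfp707, exon 4 of 4).
Zfp950: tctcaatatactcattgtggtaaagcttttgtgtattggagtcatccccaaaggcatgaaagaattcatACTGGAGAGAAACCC
Zfp317: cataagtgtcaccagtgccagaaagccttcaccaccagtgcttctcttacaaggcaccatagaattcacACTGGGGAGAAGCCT
Zfp382: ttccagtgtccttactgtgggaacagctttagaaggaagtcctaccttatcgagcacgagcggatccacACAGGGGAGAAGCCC
Zfp707: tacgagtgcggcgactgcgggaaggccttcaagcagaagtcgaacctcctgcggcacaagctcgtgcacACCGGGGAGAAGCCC

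Zfp950 held 16 runs, the most of any member, while Zfp382 held 5, Zfp317 held 4 and Zfp707 held 1. The 71 members with no run included Zfp36, Zfp521, Zfp777 and Zfp827, so the symbol alone did not mark the classical linker.

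The members were unevenly spread over the genome. Chromosome 7 held 74 of them (26.5%), chromosome 17 held 33 and chromosome 8 held 21, and 168 members (60.2%) had another Zfp symbol within 200 kb. The annotation classed 277 as protein coding and Zfp783 and Zfp939 as transcribed unprocessed pseudogenes. Since RSEM divides reads that fit several genes, members with near-identical neighbours could share counts. In all, 32 members, some of them with such neighbours, overlapped another expressed gene, 29 of them on the other strand, and the strand setting of the libraries was not given in the sources used here, so reads of such pairs could not be told apart. RefSeq promoters (GRCm38.p6, from 250 bases before to 50 bases after a start) were matched by symbol for 232 members with 279 annotated starts. The GC box GGGCGG, on either strand, was present in 46.6% of these windows and in 35.7% of all 32851 windows, and the letters TATAAA in 7.17% and 13.6%. The full set also covers genes under the count minimum, so this contrast was not matched for expression.

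Per kb of the deposited gene length, the level of the members was low, with a median of 3.33 CPM per kb and quartiles of 1.80 and 4.94. The 3 highest were Zfp365 (65.1 CPM per kb), Zfp706 (47.8) and Zfp771 (29.9), and the 3 lowest were Zfp300 (0.517), Zfp418 (0.566) and Zfp934 (0.572). These are means over the 16 mice, and that of Zfp771 was raised by hTau.P301S replicate 1, whose level is given below. Zfp365 encodes a DISC1-binding protein of neurons. Across the 16 mice the SD of a member's log2 CPM had a median of 0.29, and without hTau.P301S replicate 1 it was 0.22.

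Taken as a group, the members had their lowest level in hTau.P301S replicate 1. The level of the group in a mouse was taken as the median over members of log2 CPM minus the gene's mean over the 16 mice. It was -0.27 in that mouse and lay between -0.12 (WT replicate 2) and 0.14 (hTau.P301S + NR replicate 3) in the other 15 mice. The same median over all genes kept was -0.10 in that mouse. In the other 15 it lay between -0.01 (hTau.P301S + NR replicate 4) and 0.04 (hTau.P301S + NR replicate 1), a narrower range. For the members, the 4 WT mice had a mean of 0.01 ± 0.09 and the 4 WT + NR mice 0.003 ± 0.05 (SD). For hTau.P301S it was -0.03 ± 0.16, and with NR 0.07 ± 0.09 (SD, n = 4 each), so the groups overlapped. Without replicate 1 the hTau.P301S mean was 0.04 ± 0.04 (SD, n = 3). The members took 0.375% of counts in hTau.P301S replicate 1 and from 0.611% to 0.741% in the other 15 mice. In that library 125 members (44.8%) had their lowest level of all mice and 60 (21.5%) their highest, against 35.5% and 31.8% of all 17555 genes kept.

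**Figure D1:**
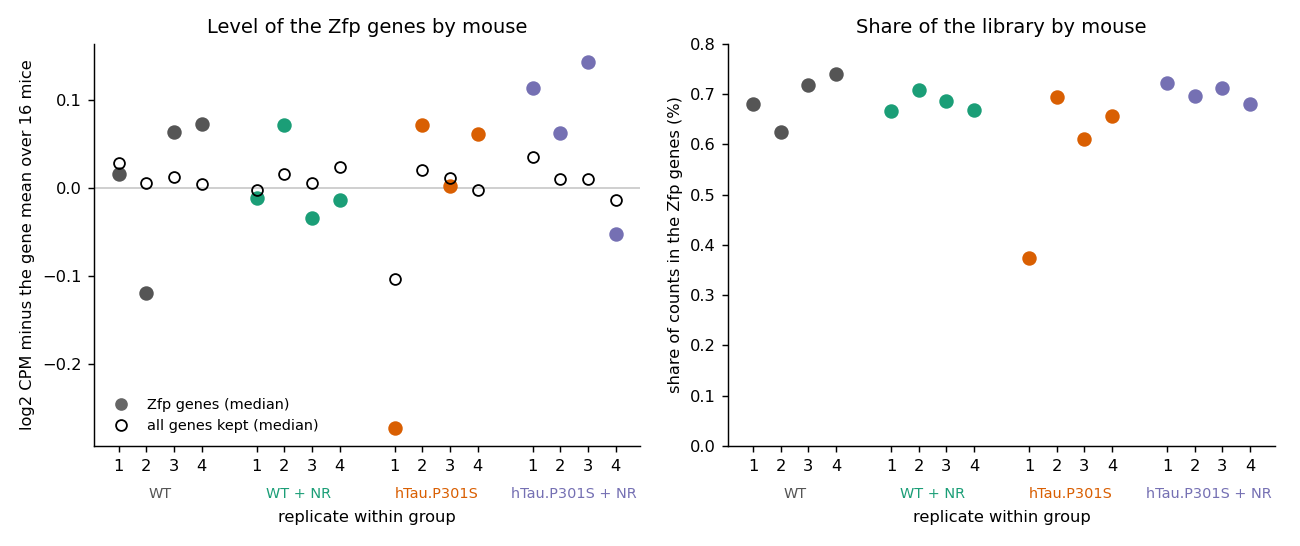
The left panel shows, for each of the 16 mice, the median over the 279 Zfp genes (filled points) and over all genes kept (open points) of log2 CPM minus the gene mean, and the right panel the share of counts in the Zfp genes in percent, with a point for each mouse. In both panels hTau.P301S replicate 1 lies below the other 15 mice, at -0.27 and 0.375%.

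Whether the Zfp genes differed between hTau.P301S and WT mice was asked first. A gene was called when its adjusted p was under 0.05 and its log2 fold change (log2FC) above 0.5 in size, by edgeR's quasi-likelihood test with Benjamini-Hochberg adjustment over all genes. No member was called, and 0.00611% of all 16375 genes tested were. DESeq2 on the same mice called 1 member, Zfp950 (adjusted p = 0.0422), and 0.608% of the genes it tested. The smallest adjusted p of a member was 0.548. The log2FC was above 0 in 138 members and below 0 in 141, with a median of -0.003, and the median of all genes was 0.02. At an unadjusted p under 0.05 edgeR gave 7 members (2.51%), 3 higher and 4 lower. Of all genes 7.91% were under this p, 3.8% higher and 4.11% lower. In 17 members (6.09%) the 4 hTau.P301S mice did not overlap the 4 WT mice, 8 higher and 9 lower. Of all genes 6.24% showed no overlap, 3.55% higher and 2.69% lower. Bulk RNA cannot tell fewer cells of a type from less RNA per cell.

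Zfp950 had the largest log2FC in size. Its level in the WT mice was 24.2, 15.4, 44.5 and 44.5 CPM, and in the hTau.P301S mice it was 16.3, 9.27, 8.17 and 11.2 CPM. The WT mice split into replicates 3 and 4, which were high, and replicates 1 and 2, and hTau.P301S replicate 1 overlapped WT replicate 2. The log2FC was -1.51 (standard error 0.38, adjusted p = 0.548, edgeR), and the two-sided exact permutation test gave p = 0.0571, where the smallest p that 4 mice against 4 allow is 0.0286. Without hTau.P301S replicate 1 the log2FC was -1.76 (adjusted p = 0.201, edgeR). With all mice and the trend over gene length removed it was -1.06 (adjusted p = 0.538, edgeR). The same WT replicates 3 and 4 had the highest nuclear noncoding RNA, 4555 and 4700 CPM against 1505 and 628 CPM in WT replicates 1 and 2, and from 483 to 1161 CPM in the hTau.P301S mice. The part of these RNAs in the difference was not tested. Zfp950 overlaps Grk5 on the other strand of chromosome 19.

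Zfp446 and Zfp317 were lower in every hTau.P301S mouse than in any WT mouse, but by less. Zfp446 was at 9.04, 10.5, 10.9 and 11.1 CPM in WT and at 5.73, 7.73, 7.14 and 7.65 CPM in hTau.P301S mice. Its log2FC was -0.56 (standard error 0.20, adjusted p = 0.568, edgeR). Zfp317 was at 22.8, 24.1, 25.8 and 25.5 CPM in WT and at 18, 18.7, 17.8 and 19.3 CPM in hTau.P301S mice. The spread within each group was narrow for Zfp317, and its log2FC of -0.41 (standard error 0.16, adjusted p = 0.568, edgeR) was nearly the same without hTau.P301S replicate 1 (-0.41). In hTau.P301S + NR mice Zfp317 was at 23.6, 22.2, 22.9 and 21.6 CPM, above every hTau.P301S mouse. Zfp219 did not overlap either, with a log2FC of -0.50. In WT its replicate 2 was at 64.4 CPM and the other 3 mice at 41.7 to 43.2 CPM, and the hTau.P301S mice lay between 28.3 and 37.6 CPM. WT replicate 2 was also the mouse with the highest striatal markers, whose part was not tested. Zfp219 overlaps Arhgef40 on the other strand.

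The members that were higher in hTau.P301S mice included Zfp788 and Zfp777. Zfp788 was at 21.5, 28.1, 31.1 and 27.6 CPM in WT and at 42.1, 34.0, 33.8 and 36.6 CPM in hTau.P301S mice, a log2FC of 0.44 (standard error 0.18, adjusted p = 0.568, edgeR). Zfp777 was at 28.2, 40.8, 35.5 and 32.6 CPM in WT and at 47.6, 44.8, 44.2 and 43.1 CPM in hTau.P301S mice, a log2FC of 0.39 (standard error 0.17, adjusted p = 0.568, edgeR). For both genes all 4 hTau.P301S mice lay above all 4 WT mice. The exact permutation p was therefore 0.0286, the smallest possible, and it adds nothing to the lack of overlap. Both genes were picked for their small p in this comparison, and 6.24% of all genes showed no overlap. Zfp764 (log2FC 0.69) and Zfp36 (log2FC 0.83) were also higher, with overlap between the groups. Zfp764 was highest in hTau.P301S replicate 1 (8.46 CPM) and its log2FC without that mouse was 0.46. Zfp36 was highest in hTau.P301S replicate 2 (10.3 CPM), and its log2FC without that mouse was 0.52.

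Without hTau.P301S replicate 1, 149 members were higher and 130 lower than in WT, with a median log2FC of 0.03, and the sign changed in 65 members. In that fit 0.0891% of all genes and no member were called, and 15 members (5.38%) had an unadjusted p under 0.05, against 12.1% of all genes. Of the 7 members under this p with all mice, 6 were under it in both fits. The members with the largest positive log2FC rested on that library. Zfp771 was at 302 CPM in hTau.P301S replicate 1 and from 27.9 to 59.1 CPM in the other 15 mice, and its log2FC moved from 1.26 to -0.03. Zfp688, which is named after its values were seen, was at 54.7 CPM there and from 6.67 to 13.9 CPM elsewhere, and moved from 1.12 to -0.04.

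**Figure D2:**
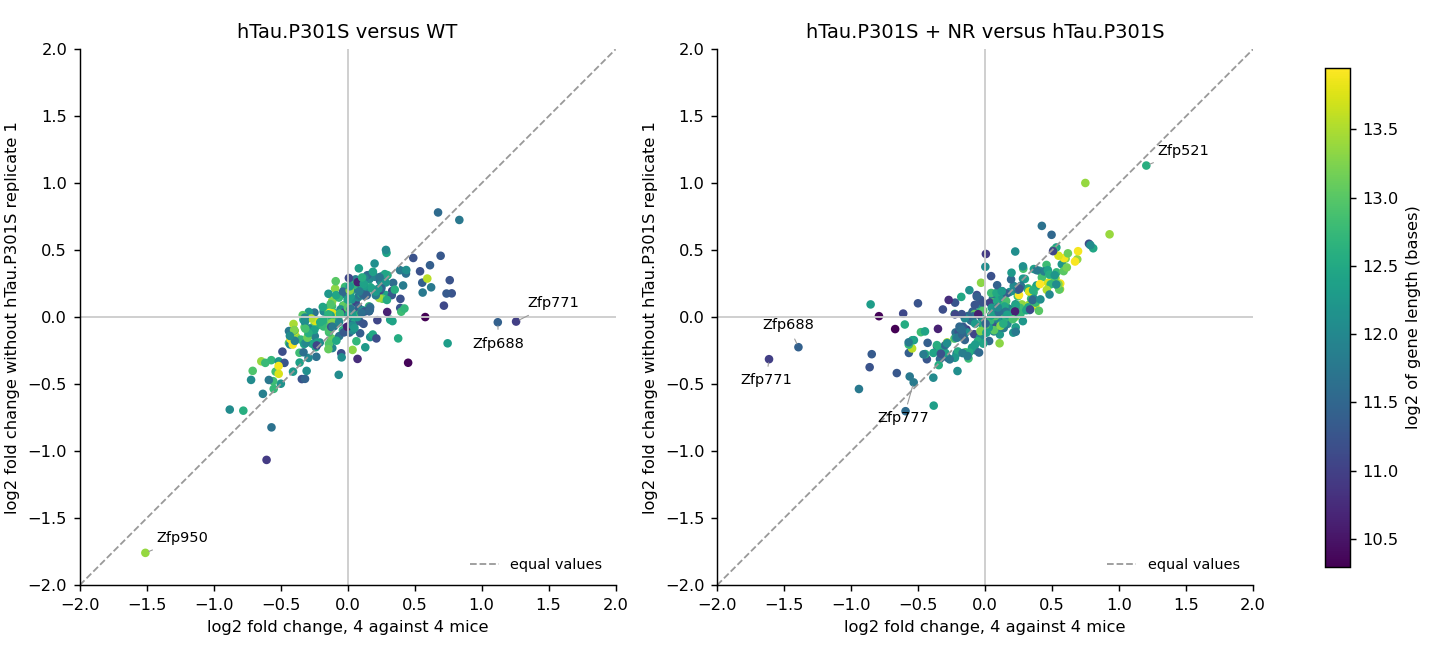
Each point is 1 of the 279 Zfp genes, with its log2 fold change from 4 against 4 mice on the x axis and without hTau.P301S replicate 1 on the y axis, coloured by log2 of gene length in bases. Zfp771 and Zfp688 lie far from the dashed line of equal values in both comparisons, while Zfp950 (-1.51 and -1.76) and Zfp521 (1.20 and 1.13) lie close to it.

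NR in hTau.P301S mice was compared next, and the same 4 hTau.P301S libraries that were set against WT above serve as its controls. By edgeR no member was called (0.0122% of 16386 genes were), and the smallest adjusted p was 0.235. DESeq2 on the same mice called 2 members, Zfp521 and Zfp777, and 1.27% of the genes it tested. With NR 169 members were higher and 110 lower, with a median log2FC of 0.08, and the median of all genes was -0.03. By edgeR 19 members had an unadjusted p below 0.05 (6.81%), 11 higher and 8 lower. Of all genes 13.8% were, 6.19% higher and 7.65% lower. The groups did not overlap in 24 members (8.60%), 16 higher and 8 lower. For all genes this was 11.9%, with 6.33% higher and 5.54% lower. Without hTau.P301S replicate 1 the counts were 161 higher and 118 lower, with a median of 0.03 and a sign change in 62 members. Again no member passed the limits (0.221% of all genes did), 36 members (12.9%) had an unadjusted p under 0.05 against 18.4% of all genes, and 13 of the 19 were among them. The smallest adjusted p was then that of Zfp46 (log2FC -0.66, adjusted p = 0.0531, edgeR), which lay at 13.9 CPM in replicate 1 and from 45.7 to 53.7 CPM in the other 3 hTau.P301S mice.

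Zfp521, a regulator of neural and blood cell differentiation, had the largest log2FC above 0. It was at 8.55, 12.2, 13.5 and 7.87 CPM in hTau.P301S and at 29.0, 26.1, 17.3 and 25 CPM in hTau.P301S + NR mice. The groups did not overlap, and the log2FC was 1.20 (standard error 0.24, adjusted p = 0.235, edgeR). Leaving out hTau.P301S replicate 1 gave 1.13 (adjusted p = 0.0661, edgeR). Zfp521 also varied widely in mice without the transgene. The WT mice were at 22.4, 32.8, 7.86 and 9.25 CPM and the WT + NR mice at 20.1, 9.18, 34.5 and 15.6 CPM, so that both groups spanned nearly the whole range of the hTau.P301S and hTau.P301S + NR mice. The highest mice, WT replicate 2 and WT + NR replicate 3, had 1072 and 229 CPM of striatal markers, the highest of their groups. In hTau.P301S mice those markers summed to between 66.8 and 120 CPM and in hTau.P301S + NR mice to between 59.5 and 347 CPM, and their part in the difference was not tested.

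Zfp777 was the member with the smallest p among those that were lower with NR. It was at 29.5, 35.2, 28.7 and 31.3 CPM in hTau.P301S + NR mice, below every hTau.P301S mouse (43.1 to 47.6 CPM) and within the range of WT mice (28.2 to 40.8 CPM). The log2FC was -0.53 (standard error 0.14, adjusted p = 0.340, edgeR), and without hTau.P301S replicate 1 it was -0.49 (adjusted p = 0.0778, edgeR). In WT + NR mice it was at 36.0, 34.3, 34.2 and 34.9 CPM. Those 4 values lay inside the WT range. Zfp707 was also lower without overlap, at 22.9, 10.1, 11.8 and 8.98 CPM in hTau.P301S and at 7.22, 6.42, 7.56 and 6.95 CPM in hTau.P301S + NR mice. hTau.P301S replicate 1 was the highest of the 16 mice, and the log2FC moved from -0.94 (adjusted p = 0.347, edgeR) to -0.54 without it (adjusted p = 0.146, edgeR).

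Zfp827, a protein that recruits the NuRD complex to telomeres, was higher with NR. It was at 19.6, 31.7, 35.3 and 31.9 CPM in hTau.P301S and at 52.5, 41.5, 45.7 and 42.5 CPM in hTau.P301S + NR mice. The groups did not overlap, hTau.P301S replicate 1 was the lowest mouse, and the log2FC was 0.62 (standard error 0.20, adjusted p = 0.347, edgeR) and 0.48 without that mouse. Zfp382, Zfp738 and Zfp971 were higher without overlap as well, with log2FC of 0.78, 0.59 and 0.51, and Zfp846 was higher with overlap (0.55). For Zfp382 the lowest mouse was hTau.P301S replicate 1 at 2.65 CPM, and the other 3 lay between 6.10 and 7.79 CPM, against 9.10 to 10.9 CPM with NR. With the trend over gene length removed, the log2FC of Zfp738 was 0.10 and that of Zfp846 0.05, genes of 15129 and 13778 bases, and that of Zfp827 was 0.35. The log2FC of Zfp382 and Zfp971 was then larger, at 0.92 and 0.75.

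**Figure D3:**
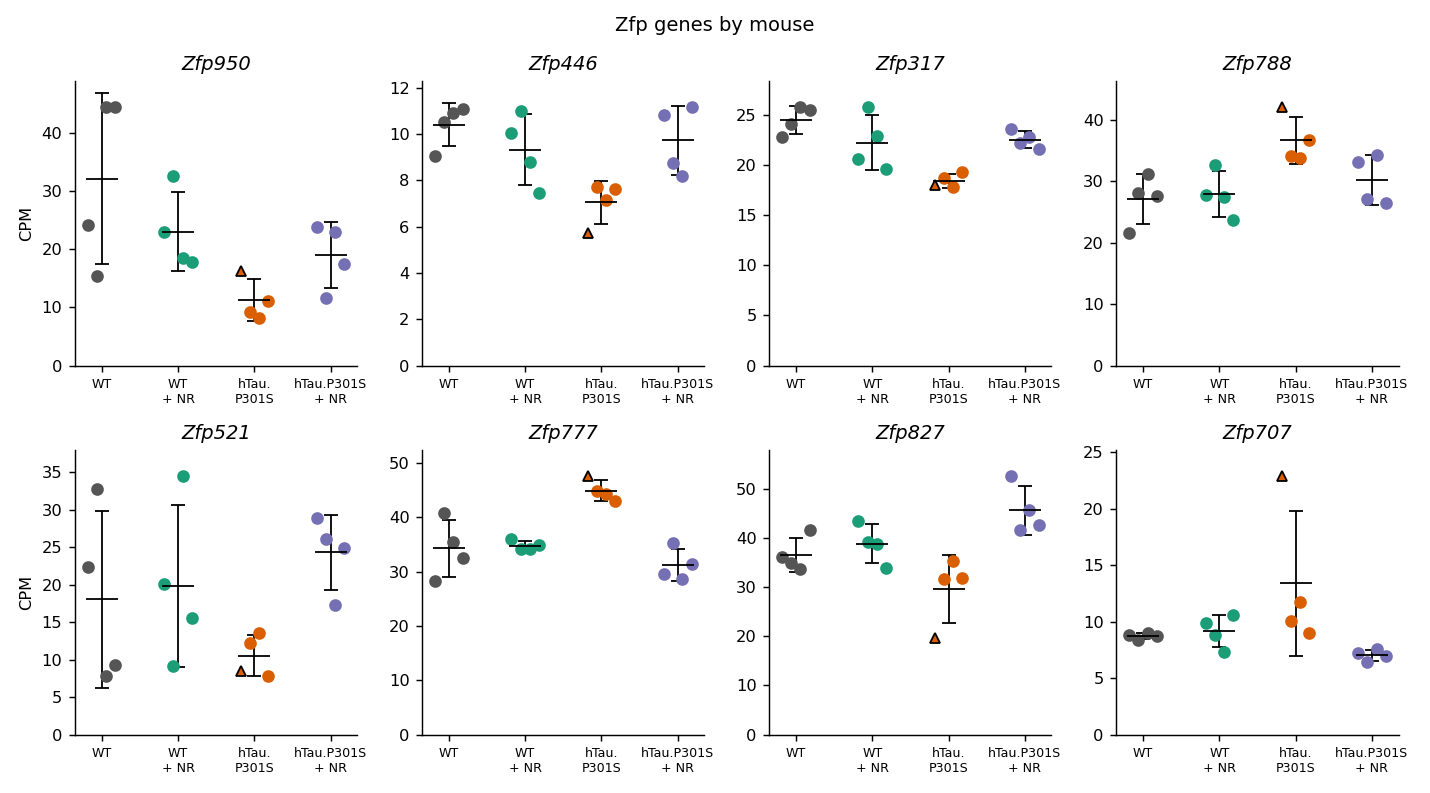
Levels in CPM of 8 Zfp genes with a small p in the comparisons of hTau.P301S with WT or of NR in hTau.P301S mice, with a point for each mouse and bars for mean ± SD (n = 4); the triangle is hTau.P301S replicate 1. Zfp777 lies between 43.1 and 47.6 CPM in hTau.P301S mice and at or below 40.8 CPM in every other mouse, while Zfp521 spreads from 7.86 to 34.5 CPM among mice without the transgene.

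In WT mice NR was compared with vehicle in the same way. edgeR called no member and none of the 16714 genes (0%), and 1 member, Zfp36, had an unadjusted p under 0.05 (0.358%), higher with NR. Of all genes 0.897% were under this p, 0.419% higher and 0.479% lower. DESeq2 on the same mice called no member and 0.00948% of the genes it tested. The members were split into 137 higher and 142 lower, with a median log2FC of -0.004. The groups did not overlap in 4 members (1.43%), 1 higher and 3 lower. For all genes this was 0.754%, with 0.365% higher and 0.389% lower. Zfp36, which promotes the decay of cytokine mRNAs, was at 4.88, 3.87, 2.58 and 3.68 CPM in WT and at 5.55, 4.92, 5.53 and 5.36 CPM in WT + NR mice. Every WT + NR mouse was above every WT mouse, and the log2FC was 0.52 (standard error 0.22, unadjusted p = 0.0443, adjusted p = 1.0, edgeR). In hTau.P301S mice Zfp36 was at 8.03, 10.3, 4.79 and 3.60 CPM and with NR at 5.51, 4.28, 3.53 and 4.81 CPM, with overlap. Zfp408 was lower with NR in WT mice without overlap, at 9.81 to 11.7 CPM in WT and 7.26 to 9.45 CPM in WT + NR mice (log2FC -0.33). Zfp786 and Zfp382 followed by p, with log2FC of -0.35 and 0.43 and overlap between the groups. WT replicate 2 was the lowest for Zfp382 (4.65 CPM), and without it the log2FC was 0.23.

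hTau.P301S + NR mice were then compared with WT + NR mice, a contrast that leaves out the deviating library. edgeR called no member (0.066% of 16671 genes were called), DESeq2 on the same mice called none either (0.279% of its genes), and the smallest adjusted p was 0.710. There were 175 members higher and 104 lower, with a median log2FC of 0.06, and the median of all genes was -0.02. At an unadjusted p under 0.05 edgeR gave 14 members (5.02%), 10 higher and 4 lower, where all genes gave 6.38%, with 2.53% higher and 3.85% lower. The groups did not overlap in 9 members (3.23%), 8 higher and 1 lower, where all genes gave 3.73%, with 1.62% higher and 2.11% lower. Zfp786 was at 3.24, 3.17, 3.41 and 2.93 CPM in WT + NR and at 5.11, 5.11, 4.87 and 4.13 CPM in hTau.P301S + NR mice. The groups did not overlap, with a log2FC of 0.59 (standard error 0.17, adjusted p = 0.710, edgeR). Zfp677 was at 1.59, 1.48, 2.62 and 1.35 CPM in WT + NR and at 4.39, 2.66, 3.25 and 2.96 CPM in hTau.P301S + NR mice, again without overlap, and its log2FC was 0.91 (standard error 0.28, adjusted p = 0.754, edgeR). Zfp941 had a log2FC of 0.78 with WT + NR replicate 3 (28.4 CPM) among the hTau.P301S + NR values of 27.1 to 39.4 CPM. Without that mouse it was the single member called in this comparison (log2FC 1.06, adjusted p = 0.0370, edgeR), in a fit that called 0.231% of all genes. Zfp638, a splicing-associated protein, had a log2FC of 0.35, and 0.22 with the length trend removed.

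Whether NR acted differently by genotype was tested as an interaction over all 16 mice. edgeR called no member and none of the 17555 genes (0%). In 12 members the unadjusted p was below 0.05 (4.30%), 4 with a more positive and 8 with a more negative NR effect in hTau.P301S mice. Of all genes 8.62% were under this p, 3.75% and 4.88% in these directions. DESeq2 called no member and 0.0894% of the genes it tested. The 4 members with the smallest p were Zfp777 (-0.55, standard error 0.18), Zfp707 (-0.99, standard error 0.35), Zfp950 (1.25, standard error 0.48) and Zfp36 (-1.06, standard error 0.42), all as log2 differences with an adjusted p of 0.532 (edgeR). The values with hTau.P301S replicate 1 left out were -0.51, -0.60, 1.48 and -0.96, and with the length trend removed that of Zfp950 was 0.70. For Zfp777 the NR effect was thus -0.53 in hTau.P301S mice with no overlap of the groups, and the 4 WT + NR mice lay within the WT range. Without hTau.P301S replicate 1 edgeR called no member and no gene (0%) for the interaction. In that fit 16 members (5.73%) had an unadjusted p under 0.05, as had 7.87% of all genes.

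The roles known for single members gave 4 lists. Of 8 neural regulators, all 8 were members. With NR in the hTau.P301S strain the log2FC was above 0 in all 8, with a median of 0.61 and values from 0.09 (Zfp24) to 1.20 (Zfp521), and the median of all genes was -0.03. edgeR called none of them, and Zfp521 and Zfp292 were under an unadjusted p of 0.05, as were 13.8% of all genes. Relative to WT, hTau.P301S mice had a log2FC below 0 in 7 of the 8, with a median of -0.31. These medians moved with a single library. Without hTau.P301S replicate 1 the medians were 0.40 with 5 higher and 3 lower for NR, and -0.02 with 3 higher and 5 lower for hTau.P301S relative to WT, and 5 of the 8 were then under an unadjusted p of 0.05 for NR, all higher. In that fit for NR 18.4% of all genes were under this p, with 1797 of 16734 genes under it and higher. Between hTau.P301S + NR and WT + NR mice, which do not include that library, 6 were higher and 2 lower, with a median of 0.24 and 2 under this p, both higher. Of all genes 6.38% were under it in that comparison, 2.53% higher.

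Zfp462, a regulator of chromatin in neural development, was among them. It was at 55.1, 34.8, 56.4 and 57.3 CPM in WT and at 8.29, 45.7, 34.8 and 41.7 CPM in hTau.P301S mice. In hTau.P301S + NR mice it was at 65.5, 54.6, 70.4 and 57.9 CPM. The NR values lay above all hTau.P301S values, with a log2FC of 0.93 (standard error 0.43, adjusted p = 0.347, edgeR), and without replicate 1 it was 0.62 (standard error 0.13, adjusted p = 0.0714, edgeR). Zfp423, which acts in cerebellar development and BMP signalling, was at 5.98, 29.1, 21.6 and 25.4 CPM in hTau.P301S and at 41.0, 34.9, 29.0 and 38.7 CPM in hTau.P301S + NR mice, and Zfp536, a repressor of neuronal differentiation, at 9.83, 26.4, 24.8 and 30.4 CPM and at 38.6, 30.8, 36.3 and 33.9 CPM. Zfp536 did not overlap and Zfp423 did, by hTau.P301S replicate 2 and hTau.P301S + NR replicate 3. Without replicate 1 their log2FC were 0.51 for Zfp423 and 0.37 for Zfp536. Zfp365, Zfp335 (a microcephaly gene) and Zfp24 (a factor of myelination) differed in the other direction once replicate 1 was left out, with log2FC of -0.08, -0.12 and -0.07. Zfp335 was at 3.93 CPM in replicate 1 and from 22.4 to 23.9 CPM in the other 3 hTau.P301S mice.

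**Figure D4:**
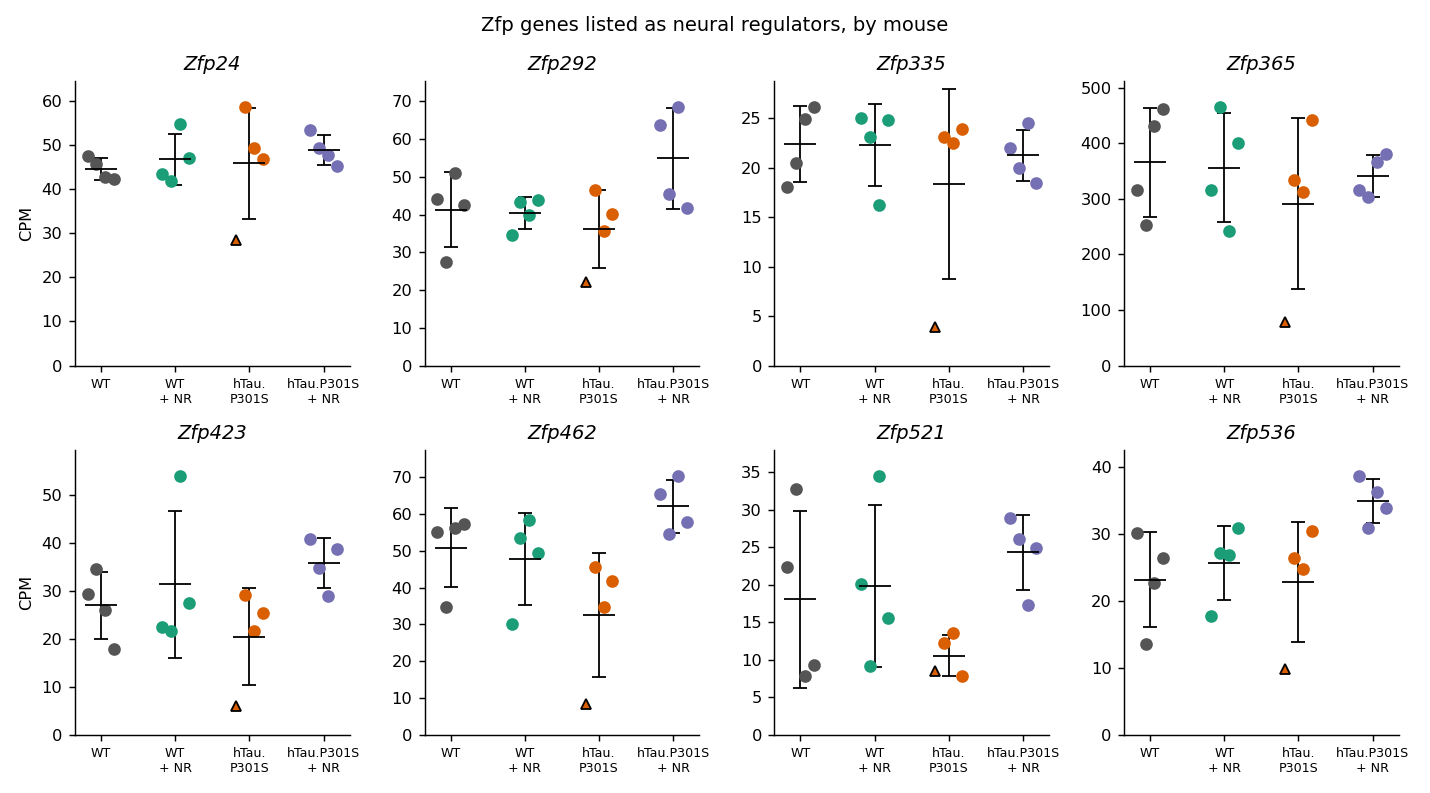
Levels in CPM of the 8 Zfp genes listed as neural regulators, with a point for each mouse and bars for mean ± SD (n = 4); the triangle is hTau.P301S replicate 1. That mouse is the lowest of its group for 7 of the 8 genes, the exception being Zfp521, where replicate 4 is lower at 7.87 CPM.

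The list of silencers of imprinted genes and retroelements held 6 genes, of which 4 were members. Zfp57, which protects imprints, had 6 counts in hTau.P301S replicate 1 and at least 21 in the others, and Zfp708 had none. With NR in the hTau.P301S strain all 4 members had a log2FC above 0, with a median of 0.31 and none with an unadjusted p under 0.05, and without replicate 1 the median was 0.29 with 2 under this p. Of all genes 13.8% were under it with all mice and 18.4% without replicate 1. Zfp445, which keeps imprints together with Zfp57, was at 66.3, 112, 95.6 and 108 CPM in hTau.P301S and at 139, 115, 143 and 115 CPM in hTau.P301S + NR mice, without overlap. Its log2FC was 0.42 (standard error 0.19, adjusted p = 0.347, edgeR). In WT mice Zfp445 was at 125, 74.9, 170 and 184 CPM, and replicates 3 and 4 were again the highest. Zfp932 was at 8.58 to 16.4 CPM in hTau.P301S mice with replicate 1 the highest, and its log2FC for NR moved from 0.42 to 0.68 without that mouse. Zfp809, which silences retroviruses, and Zfp568, which represses a placental transcript of Igf2, differed by 0.19 and 0.06.

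The 7 members that bind or process RNA (Zfp36, Zfp106, Zfp207, Zfp326, Zfp346, Zfp638 and Zfp830) showed no shared direction, with 3 higher and 4 lower for NR in hTau.P301S mice (median log2FC -0.04) and 4 higher and 3 lower for hTau.P301S relative to WT (0.08). Without hTau.P301S replicate 1 these were 4 higher and 3 lower (median 0.04) for NR, and 5 higher and 2 lower (0.04) relative to WT. Zfp106 had 75 CPM in hTau.P301S replicate 1 and from 173 to 233 CPM in the other 3. The 6 promoter-binding members (Zfp143, Zfp148, Zfp263, Zfp281, Zfp384 and Zfp410) had medians of 0.03 for NR in hTau.P301S mice and 0.04 for hTau.P301S relative to WT, and no unadjusted p under 0.05. Without hTau.P301S replicate 1 the medians of these promoter-binding members were -0.05 for NR and 0.09 relative to WT. Zfp263 lay between 17.5 and 22 CPM in all mice.

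Of the partner genes with which KRAB proteins work, Trim28 and Setdb1 among them, 21 were tested. edgeR called none in any comparison. Relative to WT, 7 had a log2FC above 0 in hTau.P301S mice and 14 below (median log2FC -0.08), and with NR in hTau.P301S mice 15 were higher and 6 lower (median 0.16), none of them with an unadjusted p under 0.05. With hTau.P301S replicate 1 left out these were 9 and 12 (median -0.02) and 11 and 10 (median 0.01), with 2 and 3 genes under that p. In the same fits 12.1% and 18.4% of all genes were under it. Other zinc finger genes with the same count minimum, 33 Zbtb and 19 Zscan or Zkscan genes, had medians of 0.17 and 0.05 with NR in hTau.P301S mice, beside 0.08 for the Zfp genes. Without hTau.P301S replicate 1 these medians were -0.02 and 0.03, beside 0.03 for the Zfp genes.

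The deposited gene length of the members ranged from 1258 (Zfp580) to 15839 bases (Zfp451), with a median of 4831, against 3931 for all genes kept. Over members, the log2FC of hTau.P301S relative to WT had a Spearman's rho of -0.39 with gene length, and that of NR in hTau.P301S mice one of 0.44. Both were close to the values over all genes tested, -0.38 and 0.48. Without hTau.P301S replicate 1 they were -0.16 and 0.26 over members, and 0.06 and 0.19 over all genes. For NR in WT mice rho was 0.10 over members and 0.13 over all genes, and for hTau.P301S + NR relative to WT + NR mice 0.10 and 0.24. These are descriptions across genes, which share the same libraries and are not independent replicates, and the hTau.P301S libraries enter the first 2 values with opposite sign.

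The members were divided by length into 4 bins of 69 or 70 genes. Among the 70 shortest (up to 3299 bases), 49 had a log2FC above 0 and 21 below for hTau.P301S relative to WT, and the median was 0.13. Among the 70 longest (from 6754 bases) 13 were higher and 57 lower, with a median of -0.14. Without replicate 1 the medians were 0.05 and -0.05. For NR in hTau.P301S mice the shortest bin had 25 higher and 45 lower (median -0.10) and the longest 58 higher and 12 lower (median 0.26), and without replicate 1 these were 37 and 33 (median 0.01) against 57 and 13 (median 0.11). In the shortest bin the medians of all genes for NR were -0.32 with all mice and -0.07 without replicate 1, beside -0.10 and 0.01 for the members. In the longest bin the medians of all genes were 0.26 with all mice and 0.12 without replicate 1, beside 0.26 and 0.11 for the members.

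Within single libraries the same relation was strongest in hTau.P301S replicate 1, where rho between the level of a member against its mean and gene length was -0.45 (-0.44 over all genes). WT replicate 2 had -0.37 and hTau.P301S replicate 3 had -0.27, and the highest value was 0.30, in hTau.P301S + NR replicate 1. At the short end, Zfp580 and Zfp428 were higher in hTau.P301S replicate 1 by 1.60 and 1.81 log2 units than the mean of the other 15 mice, and Zfp825 by 0.23. At the long end, Zfp451, Zfp638 and Zfp652 were below that mean by 0.52, 0.89 and 1.84.

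**Figure D5:**
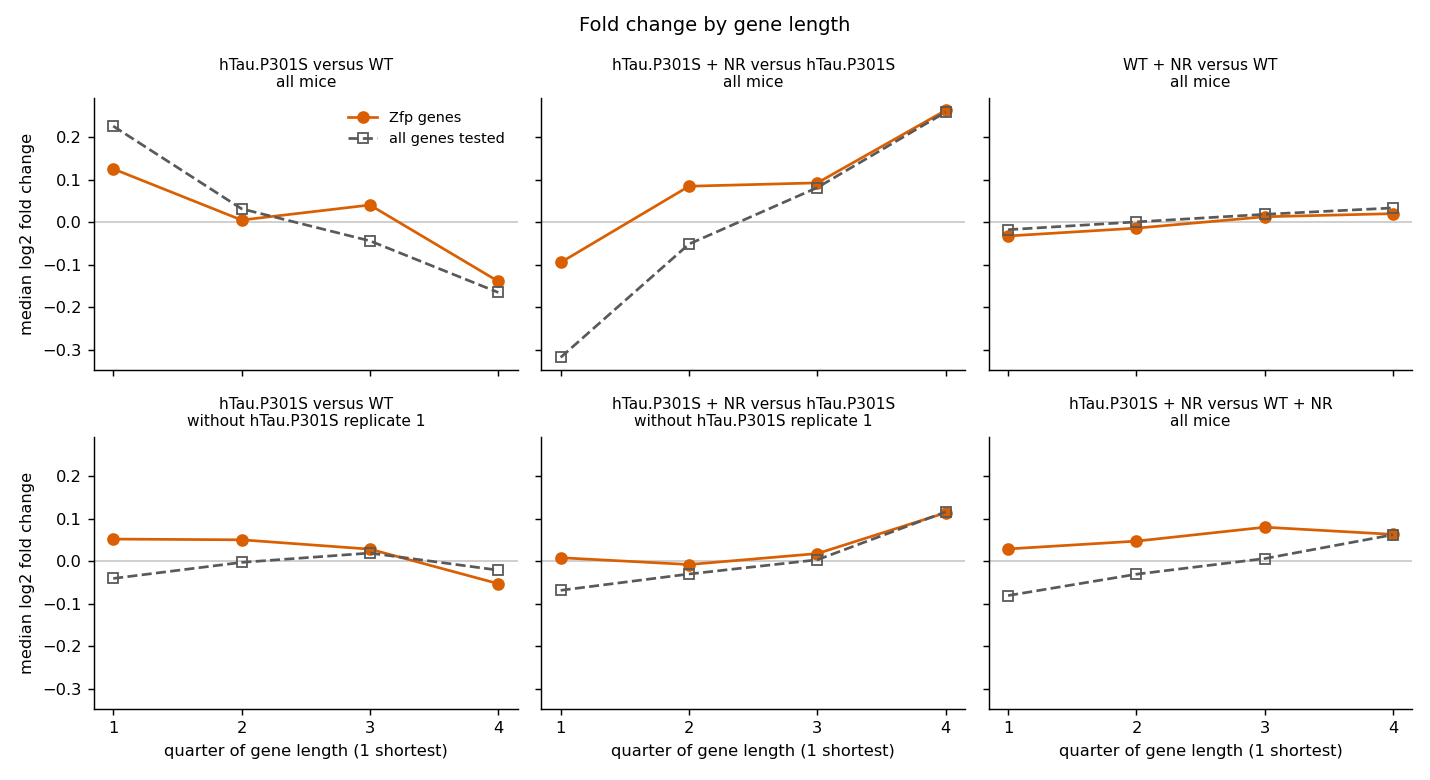
Median log2 fold change in each of 4 bins of gene length, from the shortest (1) to the longest (4), for the Zfp genes (filled circles) and all genes tested (open squares); columns are comparisons, and in the first 2 columns the lower panel leaves out hTau.P301S replicate 1. The slope over the bins is steep with that mouse, from 0.13 to -0.14 for hTau.P301S relative to WT, and shallower without it, from 0.05 to -0.05.

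Position on the chromosome gave 12 groups of neighbouring Zfp symbols with 5 or more members each, 98 members in all. On chromosome 13, from 67038596 to 67827002, 19 Zfp symbols from Zfp712 to Zfp273 included 11 members, and all 11 were higher in hTau.P301S + NR than in WT + NR mice, with a median log2FC of 0.29. On chromosome 17, from 21383748 to 22456689, 18 symbols from Zfp677 to Zfp946 included 14 members, of which 12 were higher in that comparison (median 0.29). These 2 groups were singled out after their values were seen. The same members had a log2FC above 0 for hTau.P301S relative to WT in 9 of 11 and 10 of 14 cases, with medians of 0.13 and 0.11, and no member of either group was called. The other 10 groups had medians between -0.10 and 0.12 in hTau.P301S + NR relative to WT + NR mice, and the median of all genes was -0.02. Members of such groups resemble each other in sequence, so their counts are not independent. By number of linker runs, the 117 members with 5 or more were higher in 85 and lower in 32 cases in this comparison (median log2FC 0.09), the 89 with 1 to 4 in 51 and 38 (median 0.02), and the 71 with none in 38 and 33 (median 0.01). This comparison was picked after its values were seen. For NR in WT mice, which shares the WT + NR libraries, the 117 members were higher in 48 and lower in 69 cases (median -0.03). The median gene length was 4354, 5091 and 5608 bases in these classes.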

How the data were processed

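Hippocampal RNA of 16 mice was sequenced, 4 in each group, WT or hTau.P301S with or without NR, as the labels give them. After quality control and trimming (FastQC, Trim Galore), the authors used STAR with mm10 and RSEM, and the raw counts per gene that they deposited are whole and not normalized. The authors also deposited a length for each gene, a further value (other unit) whose definition was not given in the sources used here. From the counts, each pairwise comparison was fitted over its 8 mice with edgeR 4.0.16 in R 4.3.3 (filterByExpr, TMM, quasi-likelihood test with the newer dispersion estimate of that version), and the interaction over 16 mice. Benjamini-Hochberg adjustment ran over all genes tested. A member was called at an adjusted p under 0.05 and an absolute log2FC above 0.5, or the adjusted p alone for the interaction. Standard errors came from the log2FC and its test statistic. CPM used TMM-normalised totals over all mice, and log2 CPM a prior count of 2. Single genes were also compared by two-sided exact permutation tests (scipy 1.17.1). Positions came from GENCODE M21.

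The members and lists were chosen with earlier results of these data known, so no p is given over them. The genes named were those with the smallest p (8 in each of the first 2 comparisons, 4 in each other and in the interaction), the role lists, the extremes of level and length and those next to the count minimum. Nothing in the sources says that mice of a group came from separate litters or days, so p-values measure the spread between these mice. On counts simulated for hTau.P301S relative to WT with 200 of 16157 genes changed by a log2FC of 1, the procedure recovered 20% of them, and with 200 of 16146 changed by 2 it recovered 87.5%. The simulated means and spread were those of the WT mice in both groups, with no deviating library. Recovery at the wider spread of the hTau.P301S mice was not tested. Alternatives were DESeq2 1.42.0, its size factors, other filters, leaving out mitochondrial genes, a single fit of all groups, other forms of the test, a block for the replicate number, removal of a trend with gene length, other count minimums and each mouse left out. DESeq2 over all 4 groups and genotype over 8 against 8 mice were added after seeing the data. Members with a KRAB domain were not counted here, as protein sequences were not used. Libraries held 16490261 to 21915362 counts, and counting error is largest for the lowest members, down to 22 counts in a mouse.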

Additional observations from a re-analysis of the deposited data

Results flagged for a closer look

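Among 42 named members examined, together with the level of the group, its share of counts and its relation to length, 180 groups of 4 mice were searched for a mouse far from the other 3, and 10 groups held one (5.56%). Chance gives about 1 in 20 groups. Zfp771 and Zfp688, which lay far above all other mice in hTau.P301S replicate 1, were not among the members examined. The share and the cases per mouse therefore hold only for the members examined. Each of the 10 cases is given in CPM with the range of the other 3 mice of its group.

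WT replicate 2 stood apart in 4 cases. Zfp219 was at 64.4 there and from 41.7 to 43.2 in the others, Zfp281 at 35.1 against 52.0 to 53.5, Zfp462 at 34.8 against 55.1 to 57.3, and Zfp764 at 4.48 against 3.29 to 3.41. hTau.P301S replicate 1 stood apart in 3 cases, with Zfp326 at 17.4 against 23.7 to 24.2, Zfp335 at 3.93 against 22.4 to 23.9, and Zfp408 at 4.62 against 9.90 to 10.4. In WT + NR replicate 3, Zfp346 was at 22.1 against 33.6 to 36.0. In hTau.P301S + NR mice, Zfp384 was at 21.4 in replicate 2 against 27.4 to 28.6, and Zfp410 was at 13.7 in replicate 4 against 20.2 to 20.9.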

How the results depend on the processing

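With all mice of a comparison, edgeR called no member under any alternative run to the filter, the scaling, the form of the test, the count minimum or the length trend, and the median log2FC of the members moved in every alternative run by less than the SD of the level between mice, pooled over the groups compared. That SD rests in part on hTau.P301S replicate 1 (0.16 in its group, and 0.04 without it), and the interaction median ranged from 0.06 to 0.16. Calls depended on the tool. For hTau.P301S relative to WT, DESeq2 called 1 member (Zfp950, adjusted p = 0.0422) of 116 genes on the same mice, 1 (Zfp950, adjusted p = 0.00485) of 484 genes with all 4 groups, and 2 (Zfp950 and Zfp692, adjusted p = 0.000299 and 0.0284) of 441 genes without hTau.P301S replicate 1. In the last 2 of these fits Zfp317 (-0.42 and -0.40, DESeq2 adjusted p = 0.0271 and 0.0326) missed only the limit on the log2FC. For NR in hTau.P301S mice it called 2 (Zfp521 and Zfp777, adjusted p = 0.00392 and 0.0480) of 243 genes, 3 (Zfp777, Zfp827 and Zfp707, adjusted p = 0.0175, 0.0410 and 0.0449) of 247 genes with all 4 groups, and no member among 110 genes without that mouse, where Zfp777 (-0.49, adjusted p = 0.0271) and Zfp827 (0.47, adjusted p = 0.0329) missed only the limit on the log2FC. With each mouse left out, edgeR called from 0 to 1 member in hTau.P301S + NR relative to WT + NR mice (Zfp941 without WT + NR replicate 3, where 0.231% of all genes were called, against 0.0472% to 0.0589% with another mouse left out) and 0 in the other comparisons. No gene named for its small p changed sign in its comparison under any alternative run. These genes were picked by p from the same counts, which favours a stable sign. Among all members, the sign changed without hTau.P301S replicate 1 in 65 for hTau.P301S relative to WT and in 62 for NR in hTau.P301S mice. With genotype over 8 against 8 mice, Zfp950 was at -0.90, Zfp446 at -0.24, Zfp317 at -0.19, Zfp219 at -0.35, Zfp764 at 0.34, Zfp788 at 0.28, Zfp777 at 0.12 and Zfp36 at 0.30 on the log2 scale. The number of members with an unadjusted p under 0.05 ranged from 2 to 33 for hTau.P301S relative to WT and from 5 to 43 for NR in hTau.P301S mice. The cause of these differences was not tested. The share of all genes under this p is not given for each of these fits, so the ranges are no result about the members. In the main fits by edgeR it was 7.91% and 13.8% of all genes, beside 2.51% and 6.81% of the members.

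Replicate numbers are shared between groups, but same-numbered mice are different animals, and the correlation of their deviations ranged from -0.54 to 0.29, so the numbers did not pair the mice. With the replicate number as a block 0 members were called in every comparison, and an unadjusted p under 0.05 was found for 2 members in hTau.P301S relative to WT, 7 for NR in hTau.P301S mice, 0 for NR in WT mice and 8 for hTau.P301S + NR relative to WT + NR mice. The share of all genes under this p is not given for the block fits.

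With membership set by a mean of 20 counts over all mice, 320 symbols qualified in place of 279, with 146 higher and 173 lower of 319 tested in hTau.P301S relative to WT (median log2FC -0.03), and the minimum in every mouse had left out 24 genes that were low in hTau.P301S replicate 1 alone.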
